A study of Mus musculus with 51 samples.

Results

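The genes described here are 10 genes of the endoplasmic reticulum stress response: Xbp1, Hspa5, Hsp90b1, Syvn1, Selenos, Herpud1, Ddit3, Atf4, Atf6 and Ern1. They were taken by symbol, as every probe set that the platform annotation gives to exactly 1 of them. This gave 29 of the 45101 probe sets on the array, and the 10 genes stand among 18193 genes tested. A probe set is the group of short oligonucleotides that together report 1 transcript on an Affymetrix array. For each gene the main probe set was the one with the largest SD over the 51 arrays, and the others are given beside it. Names ending in _s_at mark probe sets that several transcripts share, and those ending in _x_at hold some probes that can bind other sequences. Each array held RNA from a single mouse oocyte or embryo. There were 3 metaphase II (MII) oocytes of strain B6D2F1. At each of 6 stages there were 3 embryos made by in vitro fertilisation (IVF) from B6D2F1 parents on both sides, and 5 clones in which a Sertoli cell nucleus of a B6CBF1 donor had been placed in a B6D2F1 oocyte. The 1-cell, 2-cell, 4-cell and 8-cell embryos, morulae and blastocysts were taken 16, 32, 48, 62, 72 and 84 hours after sperm addition or activation, and all grew in KSOM medium. The labels do not say how many females or experiment days the embryos came from, so p-values measure the spread between these embryos. The series compares cloned with fertilised embryos through these stages.

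The endoplasmic reticulum is where secreted and membrane proteins fold. When unfolded proteins build up there, 3 sensors in its membrane start the unfolded protein response. The sensor IRE1, encoded by Ern1, cuts a short intron out of Xbp1 RNA, and the spliced RNA makes an active transcription factor. The sensor ATF6 is cut in the Golgi to release a transcription factor. The sensor PERK slows translation while favouring that of ATF4, which in turn drives Ddit3, also called CHOP, a factor linked to cell death. Targets of XBP1 and ATF6 include the chaperones Hspa5 (BiP) and Hsp90b1 (GRP94), and Syvn1, Herpud1 and Selenos, whose proteins help to pull misfolded proteins out of the organelle for degradation. An array of this kind reports the amount of RNA and does not show splicing of Xbp1, cleavage of ATF6 or translation of ATF4.

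The known response element of this pathway, ERSE, has the letters CCAAT, any 9 bases and then CCACG, and the related ERSE-II has ATTGG, any 1 base and then CCACG. RefSeq promoter windows of 300 bases (250 before to 50 after the gene start, GRCm38.p6) were found for 9 of the 10 genes, all but Atf6. Searched on both strands, the ERSE letters stood in 39 of 32851 such windows (0.119%) and the ERSE-II letters in 12 (0.0365%). Among the 9 windows, those of Hspa5, Hsp90b1 and Syvn1 held ERSE and that of Herpud1 held ERSE-II. These 4 upstream stretches are shown because all 4 genes rose from the 8-cell stage to the morula in IVF embryos. Capitals mark the fixed letters of the motif, and each stretch reads in the direction of its gene. They lie at chr2:34771990-34772089 (plus strand), chr10:86705520-86705669 (minus strand), chr19:6046476-6046575 (plus strand) and chr8:94386304-94386403 (plus strand).
Hspa5: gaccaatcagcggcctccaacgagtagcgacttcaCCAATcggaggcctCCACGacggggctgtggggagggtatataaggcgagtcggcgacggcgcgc
Hsp90b1: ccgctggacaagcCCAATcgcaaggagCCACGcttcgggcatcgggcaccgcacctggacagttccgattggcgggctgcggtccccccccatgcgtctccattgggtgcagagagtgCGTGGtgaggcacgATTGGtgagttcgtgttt
Syvn1: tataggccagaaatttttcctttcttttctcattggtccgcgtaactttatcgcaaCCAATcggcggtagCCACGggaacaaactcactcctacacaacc
Herpud1: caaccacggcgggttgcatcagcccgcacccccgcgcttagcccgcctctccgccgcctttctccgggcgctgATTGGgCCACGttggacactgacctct
The ERSE match began 65 bases before the start in Hspa5 and 44 before it in Syvn1. Hsp90b1 had 2 matches, at 212 bases before the start on its own strand and at 107 on the opposite strand. The match in Herpud1 began 52 bases before the start. The same window of Herpud1 held TTGCATCA, a letter string of the CARE element that ATF4 binds, which stood in 0.895% of all windows. The strings TGACGTGG (in 0.676% of windows) and TGACGTCA (in 1.79%) stood in none of the 9. The 5 letters CCACG alone, which both ERSE forms contain, stood in 7 of the 9 windows and in 32.8% of all windows. A match is a string of letters in this window and shows no binding.

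All values below are log2 values that the authors had centred for each probe set. They are differences from a baseline of the probe set, so levels cannot be compared between genes, and detection over background was not judged. Each array holds a whole embryo, so fewer expressing cells and less RNA per cell cannot be told apart. The mean value of 9 oocyte markers was between 5.31 and 5.55 in oocytes and between -3.05 and -3.01 in IVF blastocysts, and that of 10 trophectoderm markers was between -1.16 and -0.77 in oocytes and between 5.00 and 5.12 in IVF blastocysts, in the order of the stage labels. Of 15 Sertoli cell markers 1 was lower in clones at the 8-cell stage (Gata4, by -4.27, against 4.47% of all genes). At the morula stage 1 was higher (Rhox5, by 8.07, against 0.165% of all genes called in either direction). At the blastocyst stage 1 was higher (Aard, by 2.38, against 2.84% of all genes). The median difference over the 15 markers was 0.020 at the morula and 0.0091 at the blastocyst stage, against 0.012 and -0.010 over all genes. The mean of the 15 markers was 0.41 to 0.89 in cloned morulae against -0.26 to -0.21 in IVF morulae, and 0.52 to 0.96 against -0.01 to 0.22 in blastocysts, without overlap at either stage. Without Rhox5 the groups still did not overlap at the morula stage (-0.03 to 0.38 against -0.25 to -0.19) and did at the blastocyst stage. The 12 cumulus cell markers gave 1 call, Fst, higher by 0.26 at the 8-cell stage, against 2.15% of all genes. The oocyte marker mean was lower in clones, without overlap, at the 4-cell stage (-0.24 to 0.58 against 0.83 to 1.22) and at the 8-cell stage (-1.35 to -0.85 against 0.10 to 0.60). At the 8-cell stage 3 of the 9 were called lower, Zp3, Gdf9 and Bmp15, by -2.75, -2.88 and -0.88, against 4.47% of all genes (Gdf9 not without the clone named next, adjusted p = 0.0717). Sertoli cells are male, and the Y-linked gene Eif2s3y was at -5.25 in clone 8-cell replicate 4, near the oocytes (-5.42 to -5.37), whereas the other 24 clones from the 2-cell stage on lay at -2.70 or above. Its effect on the results that use it is given beside them. The bacterial hybridisation controls differed between clones and IVF embryos by -1.08 at the 1-cell stage, 1.37 at the 2-cell, 1.41 at the 4-cell and 0.886 at the 8-cell stage (each with an exact two-sided permutation p of 0.0357, the smallest that 5 against 3 can give, and 0.0857 adjusted over 12 tests). The cloned 1-cell arrays were split. Replicates 1 to 3 were at -0.90, -0.80 and -1.14, near the oocytes (-0.87 to -0.51). Replicates 4 and 5 were at 0.38 and 0.53, near the IVF 1-cell embryos (0.54 to 0.82). The part of this split in the values of cloned 1-cell embryos was not tested.

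Xbp1 (chr11:5520641-5525993) had the second largest range of the 10 genes, and nearly all of it lay between the 8-cell embryo and the morula. By the main probe set (1437223_s_at) the oocytes lay at -3.01, -3.01 and -3.01, and the IVF 8-cell embryos at -3.02, -3.02 and -0.18. The IVF morulae were at 6.18, 7.21 and 6.35 and the IVF blastocysts at 6.0004, 6.76 and 6.75. No IVF morula or blastocyst overlapped any earlier embryo. The rise from the 8-cell stage was 8.65 ± 0.82 (limma estimate ± SE, 3 embryos a stage; adjusted p = 2.95e-06). All 3 other Xbp1 probe sets rose at this step, by 7.20 (1420886_a_at), 6.08 (1420011_s_at) and 1.80 (1420012_at). Of the 51 main values 12 lay within 0.05 of the lowest one, among them all 3 oocytes and 4 of 5 cloned 1-cell embryos, so a value there may be a floor and the rise larger than given. Over the 13 group means Xbp1 spanned 9.59 log2 units, more than 98.5% of the genes.

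In clones Xbp1 lay lower than in IVF embryos at the morula stage. It had a first rise from the 1-cell to the 2-cell stage, from between -3.03 and -2.04 to 0.10, 1.63, 0.72, 0.11 and -2.55, of 2.83 ± 0.88 (adjusted p = 0.0103). That rise did not pass by any other Xbp1 probe set (0.14, 0.56 and 0.05), after a second quantile normalization (1.52, adjusted p = 0.412) or without replicate 2 (2.61, adjusted p = 0.0651). The clone 8-cell embryos were spread over -2.01, -0.06, 1.03, -2.62 and 2.28, and the cloned morulae lay at 4.29, 4.80, 5.89, 5.55 and 4.99. Every cloned morula was thus below every IVF morula, and the cloned blastocysts, at 6.70, 6.31, 6.30, 6.56 and 6.56, lay among the IVF blastocysts. The rise in clones was 5.38 ± 0.88 (adjusted p = 8.78e-05), and 4.80 without clone 8-cell replicate 4. By the main probe set neither the difference at the morula stage, -1.47 ± 0.42, nor the difference of the rises, -3.27 ± 1.31, passed the test (adjusted p = 0.266 and 0.149). Without that 8-cell clone the difference of the rises by the other 3 probe sets was -2.46, -2.23 and -1.46, still past the test.

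The other Xbp1 probe sets showed the same order of the morulae. By 1420886_a_at the IVF 8-cell embryos were at -0.01, -0.01 and -0.01 and the clone 8-cell embryos between -0.01 and 0.04. The IVF morulae stood at 6.55, 7.74 and 7.27 by this probe set, against 2.95, 4.62, 5.57, 6.08 and 4.50 in cloned morulae. The cloned blastocysts were at 7.44, 7.01, 6.87, 7.33 and 7.25, within the range of the IVF blastocysts (6.68, 7.55 and 7.74). Groups did not overlap at the morula stage and did at the blastocyst stage. The mean of the 10 trophectoderm markers was 2.47 to 3.29 in IVF morulae and 1.71 to 3.25 in cloned ones, overlapping, whereas the Sertoli cell marker mean was higher in cloned morulae without overlap. The part of either in the Xbp1 difference was not tested. The rise to the morula was smaller in clones by -2.46 ± 0.46 (adjusted p = 0.000682), and the following change to the blastocyst was larger by 2.30 ± 0.46 (adjusted p = 0.00245). For that last step the difference was 1.73 by 1420011_s_at (adjusted p = 0.0173, called in 14 of 16 fits that each left out 1 array), and it did not pass by the main probe set (1.46, adjusted p = 0.961) or by 1420012_at (0.64, adjusted p = 0.41). For the rise to the morula the difference was -2.20 ± 0.42 by 1420011_s_at (adjusted p = 0.000793) and -1.53 ± 0.29 by 1420012_at (adjusted p = 0.000552). It kept its sign and passed the test by each of these 3 probe sets when any 1 of the 16 arrays of both stages was left out, with adjusted p between 1.77e-05 and 0.00784. In the test of the difference of the rises 1.38% of all genes were called lower. The stage contrast alone, over 8 morulae, did not pass the test by any of the 3 (differences of -2.44, -1.67 and -1.38, adjusted p = 0.289, 0.224 and 0.0726). The test of the difference of the rises took 1 spread per probe set from all groups, including early ones that hardly varied. By 1420886_a_at the SD was 0.0022 in IVF 8-cell embryos and 1.198 in cloned morulae. By this probe set the 8-cell means were -0.0113 (IVF) and 0.0055 (clones), so the difference of -2.46 is nearly the morula difference of -2.44. The adjusted p-values of all 3 probe sets, also with 1 array left out, rest on that shared spread.

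**Figure D1:**
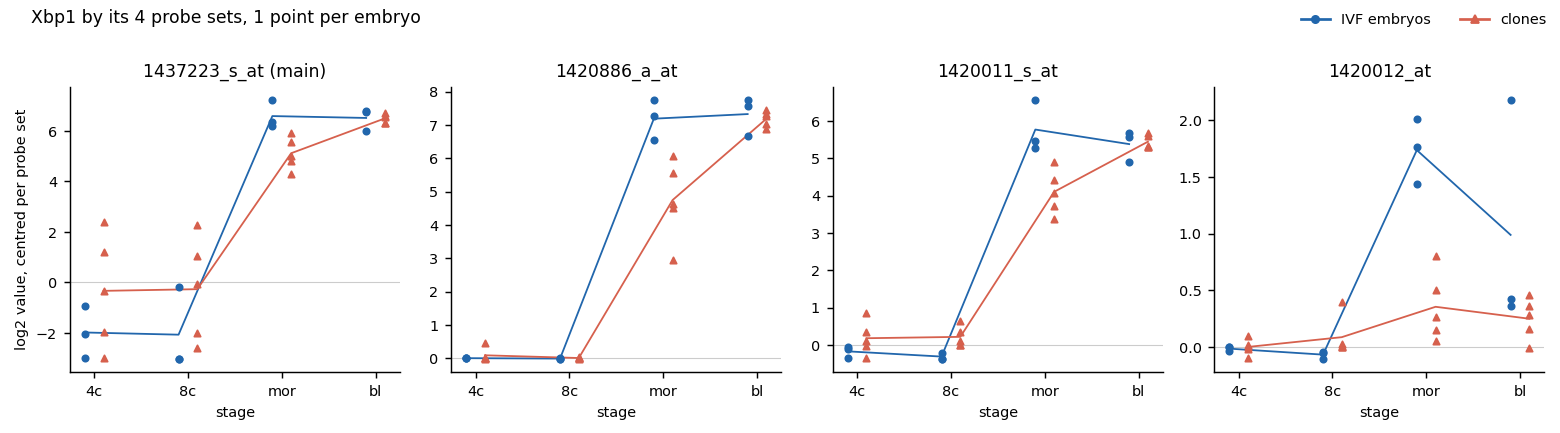
Log2 values of Xbp1 (vertical axis, centred per probe set) at the 4-cell, 8-cell, morula and blastocyst stages, by each of its 4 probe sets, with circles for IVF embryos, triangles for clones and lines through the group means. At the morula stage all 5 clones lie below all 3 IVF embryos in every panel.

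The chaperone Hspa5 (chr2:34772090-34776529), the main chaperone of the organelle and the partner that holds the sensors inactive, climbed in steps. Its oocytes were lowest, at -1.50, -1.91 and -2.79. The IVF 8-cell embryos were at -0.86, -0.40 and -0.28 and the IVF morulae at 2.42, 2.61 and 1.50. In IVF embryos Hspa5 rose from oocyte to 1-cell by 1.51 ± 0.39 (adjusted p = 0.00758), to the 2-cell stage by 1.09 ± 0.39 (adjusted p = 0.0418) and from the 8-cell stage to the morula by 2.69 ± 0.39 (adjusted p = 0.000175). The first 2 of these rises did not pass after a second quantile normalization (0.59 and 0.82) or without replicate 2 or 3, and the 2-cell rise was lost without replicate 1 too. The probe set 1416064_a_at rose at both steps, by 1.93 and 1.65, and 1447824_x_at rose at the second, by 0.77. Both other probe sets of Hspa5 rose at the morula stage, by 1.78 (1416064_a_at) and 1.43 (1447824_x_at).

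In clones Hspa5 rose from the 1-cell to the 2-cell stage by 2.08 ± 0.46 (adjusted p = 0.00043), and both other probe sets rose there by 2.75 and 1.56. Cloned morulae were spread over 0.09, -0.27, -0.80, 1.82 and -1.24 for Hspa5, and 4 of the 5 lay below all IVF morulae, with replicate 4 inside their range. The difference of -2.26 ± 0.70 did not pass the test over the 8 morulae (adjusted p = 0.319) and did in a fit of all 51 arrays (adjusted p = 0.0028). The rise from the 8-cell stage was 1.13 ± 0.46 in clones (adjusted p = 0.093), and its difference from the IVF rise was -1.56 ± 0.67 (adjusted p = 0.186). Without clone 8-cell replicate 4 these were 0.97 and -1.72 (adjusted p = 0.199 and 0.138). Without clone morula replicate 4 that difference was -2.04 (adjusted p = 0.035). It passed by the probe set 1447824_x_at, at -1.45 ± 0.36 (adjusted p = 0.00982), and not by 1416064_a_at, at -0.92 ± 0.41. By 1447824_x_at the 8-cell clones were already high, between 0.44 and 1.83, and the cloned morulae lay at 1.27, 0.84, 1.11, 0.68 and 0.93 beside 1.12, 1.23 and 1.13 in IVF morulae, so that the smaller change went with a higher start. From morula to blastocyst Hspa5 rose in clones by 1.76 ± 0.46 (adjusted p = 0.00445), to 1.96, 1.10, 1.66, 2.12 and 1.54, which overlapped the IVF blastocysts at 1.42, 1.84 and 2.16. The probe set 1447824_x_at fell at this step, by 0.95.

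Hsp90b1 (chr10:86690841-86705444), the HSP90 form of the organelle, had a deep trough before its rise. Its oocytes were at 0.79, 0.60 and 0.58, its IVF 4-cell embryos at -2.96, -4.88 and -4.04, and its IVF 8-cell embryos at -6.60, -4.68 and -2.39. The IVF morulae had returned to 1.89, 1.47 and 0.88, above every 8-cell embryo. The fall from the 2-cell to the 4-cell stage was -2.43 ± 0.81 (adjusted p = 0.0402) and did not pass when any of the 3 replicate numbers was left out (adjusted p = 0.0512 to 0.32). The rise to the morula was 5.97 ± 0.81 (adjusted p = 8.73e-05), and 5.71 by the other probe set, 1415889_a_at. Those 2 probe sets differed at the start of development: 1415889_a_at rose by 3.85 from oocyte to IVF 1-cell embryo, where the main one gave -0.76 ± 0.81.

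In clones Hsp90b1 was at 2.30, 2.10, 2.24, 0.67 and 1.14 at the 1-cell stage and at -2.07, -0.94, -1.79, -5.34 and -5.98 at the 8-cell stage. Cloned morulae lay at 0.05, -0.39, -1.28, 0.00 and -1.42, all below the IVF morulae. The rise of 2.61 ± 0.89 (adjusted p = 0.0426) did not pass without clone 8-cell replicate 4 (2.09, adjusted p = 0.129), nor when replicate 1, 3, 4 or 5 was left out at all stages. By 1415889_a_at the rise was 2.99 ± 0.61 (adjusted p = 0.001). The difference at the morula stage was -2.02 ± 0.44 (adjusted p = 0.155), and the difference of the rises was -3.36 ± 1.32 (adjusted p = 0.139), or -3.88 without that 8-cell clone (adjusted p = 0.0707). In blastocysts the main probe set was lower in clones by -0.94 ± 0.10 (adjusted p = 0.00779), with 0.50, 0.28, 0.38, 0.67 and 0.47 against 1.22, 1.48 and 1.49 in IVF embryos. Those groups did not overlap. By 1415889_a_at they did, with a difference of -0.11, and the main difference did not pass in a fit of all 51 arrays or with the 3′ to 5′ control difference as a covariate (adjusted p = 1.00 and 0.163). That control difference was itself 0.815 higher in cloned blastocysts (exact permutation p = 0.0357, adjusted 0.0857). The Sertoli cell marker mean was also higher in cloned morulae and blastocysts, and its part in the Hsp90b1 differences was not tested.

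Of the genes for degradation, Syvn1 (chr19:6046576-6053718), the ubiquitin ligase also called HRD1, was highest in oocytes, at 3.21, 3.48 and 3.64. In IVF embryos it was at -2.35, -3.15 and -4.49 by the 1-cell stage, a fall of -6.77 ± 0.40 (adjusted p = 2.96e-09). Cloned 1-cell embryos still stood at 1.72, 1.15, 0.87, 0.55 and 0.95, between the oocytes and the IVF embryos and overlapping neither. Their fall from the oocyte was -2.39 ± 0.26 (adjusted p = 0.00114), and they were higher than IVF embryos by 4.38 ± 0.50 (adjusted p = 0.00685), or by 3.93 with the hybridisation controls as a covariate (adjusted p = 0.0514). The mean of the 9 oocyte markers was also higher in cloned 1-cell embryos, at 5.85 to 6.22 against 5.48 to 5.75 in IVF embryos, with Zp1 higher by 1.10 and Oosp1 by 0.38 among them, and its part in the difference of Syvn1 was not tested. At the 2-cell stage clones were at -1.67, -1.04, -3.64, -2.46 and -0.98 and IVF embryos at -3.83, -3.29 and -2.85, and the groups overlapped. Clones fell between these stages by -3.00 ± 0.46 (adjusted p = 4.42e-06), the IVF difference was 0.0082 ± 0.40, and the changes differed by -3.01 ± 0.68 (adjusted p = 0.00171). The second probe set, 1428070_at, gave -1.69 ± 0.56 for that difference (adjusted p = 0.0402) and 2.13 ± 0.57 for the 1-cell difference (adjusted p = 0.09). After a second quantile normalization the difference of the changes was -0.65, and without replicate 3 it was -1.82 (adjusted p = 1.00 and 0.0858).

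Later in IVF development Syvn1 rose from the 2-cell to the 4-cell stage by 3.38 ± 0.40 and from the 8-cell stage to the morula by 2.37 ± 0.40 (adjusted p = 1.87e-05 and 0.000533, the second 0.069 without replicate 2). It then fell by 1.50 to the blastocyst (adjusted p = 0.0131, and 0.22 without replicate 2). The IVF morulae were at 1.29, 1.78 and 1.21 and the cloned ones at 0.97, 0.70, 0.68, 0.63 and -0.28. The clones lay below all IVF morulae, with a difference of -0.89 ± 0.30 that did not pass the test (adjusted p = 0.353).

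Herpud1 (chr8:94386429-94395371), a membrane protein that gathers the degradation complex, was low up to the 8-cell stage and high at the end. Up to the 8-cell stage all embryos lay between -0.34 and 0.30 except an IVF 1-cell embryo at 0.55 and a clone 4-cell embryo at 1.64. The IVF 8-cell embryos were at -0.01, -0.05 and -0.21, the IVF morulae at 1.71, 0.78 and 2.61 and the IVF blastocysts at 2.54, 2.13 and 2.86. The rise to the IVF morula was 1.78 ± 0.32 (adjusted p = 0.000989, and 0.0654 without replicate 1). Cloned morulae were at 0.90, 1.24, 1.32, -0.02 and -0.01, and 2 of the 5 were still at the 8-cell level. Cloned blastocysts reached 2.45, 2.73, 3.88, 0.79 and 3.59, a rise of 2.00 ± 0.40 (adjusted p = 0.000399). Across the 13 group means Herpud1 had the course nearest to that of Xbp1 among the 10 genes (Pearson r = 0.907, n = 13 means that share arrays and stages). Its second probe set, 1435626_a_at, showed no rise, and its largest difference between successive stages was -0.12.

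Selenos (chr7:66079649-66089405), a selenoprotein of the channel that exports misfolded proteins, changed more between 2 stages than any other of the 10 genes. All 11 oocytes and 1-cell embryos of both kinds lay between -10.36 and -10.03, and all 40 later embryos between -1.24 and 2.00. The rise from the 1-cell to the 2-cell stage was 12.08 ± 0.21 in IVF embryos and 11.21 ± 0.20 in clones (adjusted p = 1.52e-15 and 1.40e-24). The other probe sets rose by 9.97 (1435735_x_at) and 5.84 (1452095_a_at) in IVF embryos. The 11 early values lie in so narrow a band that they may be a floor, and the rises are then larger than given. The span of its group means, 12.18, exceeded that of 99.9% of the genes.

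After that rise the IVF values moved down and up in steps. The IVF 2-cell, 4-cell and 8-cell embryos and morulae had means of 1.94, 0.29, 1.10 and -0.68, and the clones 1.17, 0.97, 0.40 and 0.17. IVF embryos fell by 1.65 to the 4-cell stage and by 1.78 to the morula (adjusted p = 3.52e-05 and 2.45e-05), and clones fell by 1.17 from morula to blastocyst (adjusted p = 6.97e-05). The IVF falls were -2.50 and -2.20 by 1452095_a_at, both past the test, and -0.34 and -0.62 by 1435735_x_at, neither past it (adjusted p = 0.727 and 0.578). The clone fall was -1.03 by 1435735_x_at, past the test, and -0.25 by 1452095_a_at (adjusted p = 0.519). At the 2-cell stage clones stood at 1.14, 1.17, 1.11, 1.07 and 1.36 and IVF embryos at 2.00, 2.00 and 1.81. At the 4-cell stage clones stood at 0.92, 1.17, 0.93, 0.94 and 0.88 and IVF embryos at 0.00, 0.40 and 0.46. The groups did not overlap at either stage and their order was opposite. By 1452095_a_at the 2-cell difference passed the test (-1.94) and the 4-cell one did not (0.64), and by 1435735_x_at neither did (-0.66 and -0.20). The oocyte marker mean was lower in clones at the 4-cell stage, and its part in the Selenos difference there was not tested. By the main probe set the difference was -0.77 ± 0.08 at the 2-cell stage (adjusted p = 0.00936) and 0.68 ± 0.12 at the 4-cell stage (adjusted p = 0.0447). The second of these did not pass when any 1 of the 8 embryos was left out (adjusted p = 0.0594 to 0.099). With the hybridisation controls as a covariate the differences were -1.28 and 1.41 and neither passed (adjusted p = 0.1 and 0.603).

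The change of Selenos differed between clones and IVF embryos at 3 successive steps: by 1.45 ± 0.31 from the 2-cell to the 4-cell stage, by -1.38 ± 0.31 to the 8-cell stage and by 1.55 ± 0.31 to the morula (adjusted p = 0.00485, 0.0129 and 0.00128). Without clone 8-cell replicate 4 the last pair was -1.58 and 1.75, and the change in clones from the 4-cell to the 8-cell stage, -0.57 with it (adjusted p = 0.1), was a fall of -0.77 (adjusted p = 0.00788). The probe set 1452095_a_at gave the same signs at 2.58, -2.23 and 2.11, all past the test, and 1435735_x_at gave 0.47, -0.28 and 0.68, none past it. The first was lost without replicate 1 or 2 (1.28 and 1.42), the second without replicate 1, 2 or 3 (-1.31, -1.51 and -1.10) and the third without replicate 3 (0.94, adjusted p = 0.131).

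The sensor gene Atf6 (chr1:170704457-170868585) was highest in oocytes, at 5.00, 4.92 and 5.01. IVF 1-cell embryos were at 0.73, 0.60 and 0.89, and cloned ones at 3.56, 4.24, 3.36, 3.80 and 3.15. The 3 groups did not overlap, and the clones again lay between the oocytes and the IVF embryos. The fall from the oocyte was -4.24 ± 0.40 in IVF embryos and -1.35 ± 0.24 in clones (adjusted p = 5.43e-07 and 0.00827), and clones were higher by 2.88 ± 0.25 (adjusted p = 0.00327). Neither other probe set of Atf6 called that difference, with 2.19 by 1435444_at (adjusted p = 0.0618) and -0.76 by 1453288_at (adjusted p = 0.442). The fall in clones was lost without replicate 1 or 3 (adjusted p = 0.0741 and 0.0748), and by 1453288_at the IVF step was a rise of 1.69 (adjusted p = 0.0263). The higher oocyte markers of cloned 1-cell embryos stand beside this difference as well. By the 2-cell stage clones were at -2.26, -2.26, 1.01, -0.69 and -2.26 and IVF embryos at -0.66, -0.87 and -1.03, and the groups overlapped. In clones 3 of the 5 values were the lowest of all 51. The fall between these stages was larger in clones by -3.32 ± 0.72 (adjusted p = 0.00112). It was larger by -2.14 by the probe set 1435444_at (adjusted p = 0.0197), did not pass after a second quantile normalization (-1.83, adjusted p = 0.473) or without replicate 2 (-2.86, adjusted p = 0.0729), and had the opposite sign, without passing, by 1453288_at (1.12).

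Ern1 (chr11:106397620-106487796), the gene of the sensor IRE1, had 5 probe sets that did not give 1 course. The main one, 1421240_at, was at 2.38, 2.89 and 2.10 in oocytes, 5.81, 6.06 and 5.83 in IVF 1-cell embryos and 3.95, 4.23, 4.25, 4.82 and 4.78 in cloned ones. By 1437119_at the same oocytes were at 5.24, 4.95 and 5.12, the IVF 1-cell embryos at 0.97, 1.24 and 1.27 and the cloned ones at 3.94, 4.14, 3.30, 3.61 and 3.33. The clones lay between the other 2 groups by both, but the order was opposite. From oocyte to IVF 1-cell embryo the main probe set rose by 3.44 ± 0.39 and 1437119_at fell by 3.95 (adjusted p = 3.91e-06 and 2.47e-09). The clone minus IVF difference at the 1-cell stage was -1.50 ± 0.22 by the first and 2.51 ± 0.22 by the second (adjusted p = 0.0143 and 0.00354, the first 0.0586 without IVF replicate 2). The change to the 2-cell stage differed by 1.67 ± 0.55 and by -2.08 ± 0.45 (adjusted p = 0.038 and 0.00106), and the first was lost without replicate 2, 3, 4 or 5 (1.41 to 1.67). No direction is therefore given for the gene at these stages. Which transcripts or sequences the probe sets of Ern1 report was not tested.

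From the 2-cell stage on, the main probe set of Ern1 fell in both kinds of embryo. From the 2-cell to the 4-cell stage it fell by 2.22 in IVF embryos and by 2.99 in clones (adjusted p = 0.000568 and 1.82e-07, the first 0.0529 without replicate 2). None of the other 4 probe sets called that fall. They gave -0.47 to 0.70 in IVF embryos (adjusted p = 0.168 to 0.988) and -0.19 to 0.13 in clones (adjusted p = 0.261 to 0.72). By the mean of the probe sets the IVF fall was -0.41 (adjusted p = 0.0678). The IVF blastocysts were at -1.99, -2.25 and -2.40 and the cloned ones at -1.92, -2.07, -1.91, -2.24 and -2.20. From the 8-cell stage to the IVF morula both 1421240_at and 1437119_at fell, by 2.41 and 2.67 (adjusted p = 0.000392 and 1.08e-06). By 1437119_at the change differed between clones and IVF embryos at this step by 1.56 ± 0.45 and at the step to the blastocyst by -2.02 ± 0.45 (adjusted p = 0.0291 and 0.00668; the first was 1.70 without clone 8-cell replicate 4, adjusted p = 0.0154), while by the main one these differences were 1.38 and 0.52, not past the test. The 8-cell clones were at -0.52, -0.68, -1.85, -0.50 and -0.48 and the IVF 8-cell embryos at 0.33, 0.93 and 1.60, without overlap. That difference, -1.76 ± 0.42, fell short of the threshold over the 8 arrays (adjusted p = 0.0565) and passed it in a fit of all 51 (adjusted p = 0.000916). Without clone 8-cell replicate 4 it was -1.83 (adjusted p = 0.0834), and by the other 4 probe sets it was between -0.57 and 0.00. The oocyte marker mean was lower in clones at this stage as well, and its part in the Ern1 difference was not tested.

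**Figure D2:**
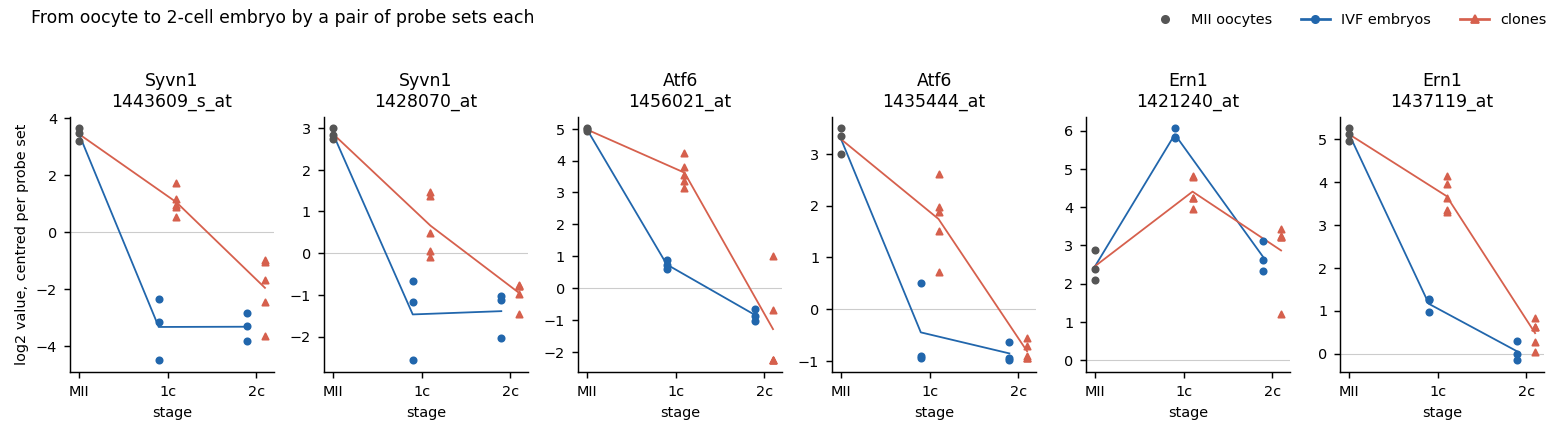
Log2 values (vertical axis, centred per probe set) of Syvn1, Atf6 and Ern1 in MII oocytes and in 1-cell and 2-cell embryos, by a pair of probe sets each, with circles for IVF embryos, triangles for clones and lines through the group means. For Syvn1 and Atf6 cloned 1-cell embryos lie between oocytes and IVF embryos, while the 2 probe sets of Ern1 move in opposite directions from oocyte to IVF 1-cell embryo.

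Atf4 (chr15:80255184-80257545), the factor of the PERK branch, moved little, over a span of 2.46. Oocytes were at -1.57, -1.92 and -1.11, and IVF 1-cell embryos at 0.62, 0.58 and 0.00. This rise was 1.94 ± 0.23 (adjusted p = 6.61e-06), and 0.07 by 1439258_at (adjusted p = 0.892). The IVF change from the 1-cell to the 2-cell stage was not called. Means were highest at the 2-cell stage, with 0.68, 0.98 and 1.12 in IVF embryos and 0.39, 0.81, 1.34, 0.72 and 0.83 in clones. The kinds of embryo overlapped there. Atf4 fell by 0.86 to the IVF 4-cell stage and rose by 1.38 from morula to IVF blastocyst (adjusted p = 0.0123 and 0.00049), and clones moved the same way by -1.17 and 1.25 (adjusted p = 0.00321 and 0.00206). The fall to the 4-cell stage was -0.05 by 1438992_x_at (adjusted p = 0.947) and -0.54 by 1439258_at (adjusted p = 0.0414) in IVF embryos, and -0.60 and -0.03 in clones (adjusted p = 0.0721 and 0.965). The IVF fall was lost in a fit of all 51 arrays (adjusted p = 0.063) and without replicate 1 or 2 (-1.05 and -0.68) and the IVF rise without replicate 1 (1.15, adjusted p = 0.0544). For the last step the other probe sets gave -0.51 (1438992_x_at) and -0.21 (1439258_at) in IVF embryos, neither past the test. By the main probe set no stage separated clones from IVF embryos for Atf4. By 1438992_x_at the 8-cell clones (0.06 to 0.82) lay above the IVF 8-cell embryos (-0.30 to -0.28). At that stage 48.2% of all genes did not overlap.

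Ddit3 (chr10:127290793-127296291), the CHOP gene downstream of ATF4, was at -1.12, -0.83 and -0.98 in oocytes and 1.29, 1.07 and 0.78 in IVF 1-cell embryos. Cloned 1-cell embryos were at -0.39, -1.27, -0.12, 0.76 and 0.61, all below the IVF embryos. The highest of these clones, replicates 4 and 5, were those with hybridisation controls near the IVF 1-cell arrays. The part of that in the Ddit3 values was not tested. The rise of 2.02 ± 0.32 in IVF embryos passed the test (adjusted p = 0.000117, or 0.252 with 1.13 after a second quantile normalization). The change of 0.90 ± 0.47 in clones did not, and the difference between clones and IVF embryos, -1.13 ± 0.48, did not either over the 8 embryos (adjusted p = 0.283) and did in a fit of all 51 arrays (adjusted p = 0.0417). The second probe set, 1443897_at, gave no IVF rise (0.00). At the end the order was the other way. Cloned blastocysts were at 1.07, 1.22, 2.55, 1.56 and 1.64 and IVF blastocysts at 0.81, 0.41 and 0.77, again without overlap, and the difference of 0.95 ± 0.33 did not pass (adjusted p = 0.174). In clones Ddit3 rose from morula to blastocyst by 1.42 ± 0.35 (adjusted p = 0.00319), where the IVF change was 0.52 ± 0.32. The difference between these changes, 0.90 ± 0.53, did not pass the test (adjusted p = 0.664), and 1443897_at gave -0.07 in clones.

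**Figure D3:**
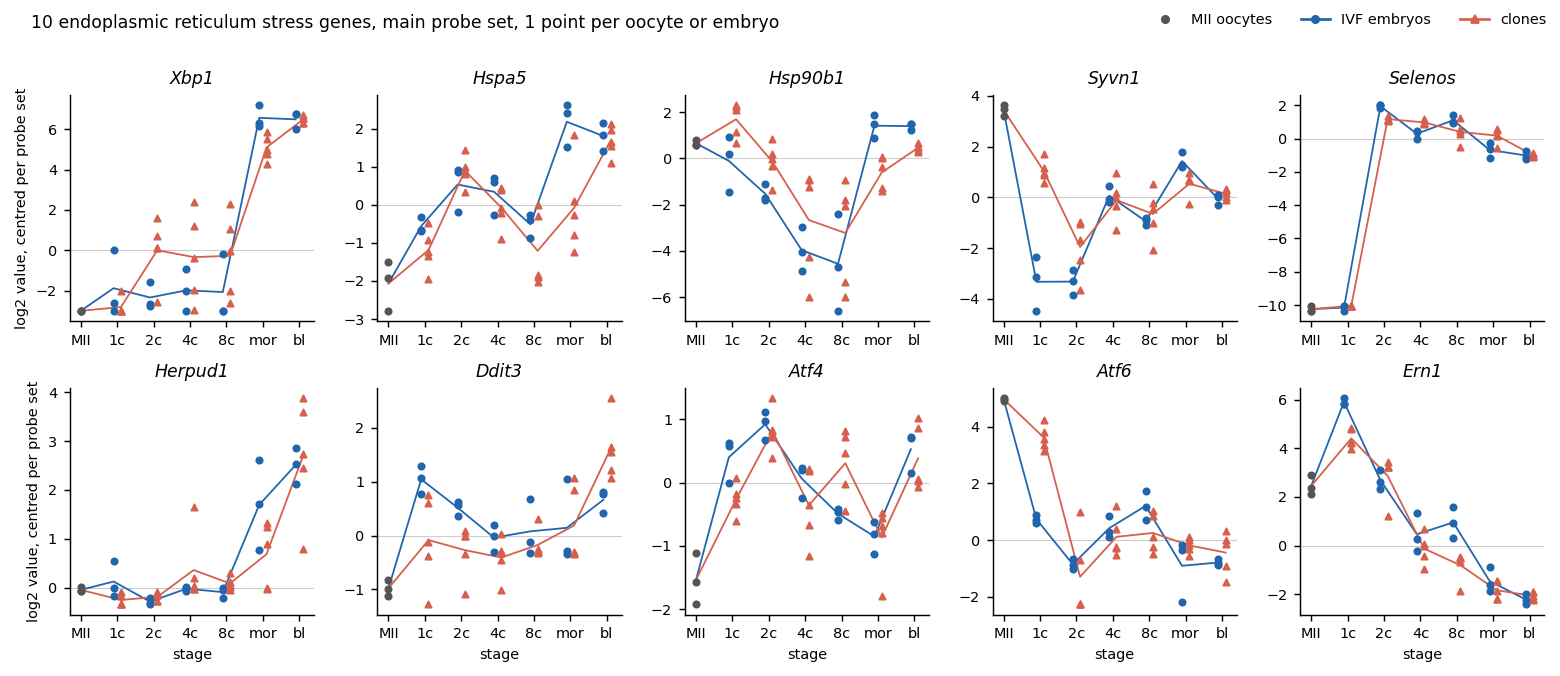
Log2 values of the 10 genes (vertical axis, centred per probe set, main probe set) across MII oocytes and 6 embryo stages, with grey points for oocytes, circles for IVF embryos, triangles for clones and lines through the group means. Selenos steps up between the 1-cell and 2-cell stages, and Xbp1, Hspa5, Hsp90b1 and Herpud1 step up at the IVF morula.

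Counted over the course of IVF embryos, the 10 genes moved most at the 8-cell to morula step. There 5 rose (Xbp1, Hsp90b1, Hspa5, Syvn1 and Herpud1), against 7.09% of all genes, and 3 fell (Ern1, Atf6 and Selenos), against 10.1% of all genes. From oocyte to 1-cell embryo 4 rose (Atf4, Ddit3, Ern1 and Hspa5) and 2 fell (Atf6 and Syvn1), against 14.3% and 16.3% of all genes. From the 1-cell to the 2-cell stage 2 rose (Selenos and Hspa5) and 2 fell (Atf6 and Ern1), against 17.2% and 18.7%. To the 4-cell stage 2 rose (Syvn1 and Atf6) and 4 fell (Atf4, Ern1, Hsp90b1 and Selenos), against 10.5% and 13.3%, and to the 8-cell stage none moved by limma, against 1.98% of all genes called (2519 genes had an unadjusted p under 0.05). From morula to blastocyst 1 rose (Atf4) and 1 fell (Syvn1), against 12.6% and 10.1%. The fall of Atf6 at the morula step had the opposite sign by 1435444_at (0.48, not past the test). Set against the other probe sets of the same genes, the calls at IVF steps were repeated in the same direction in 24 of 53 pairs of a call and another probe set, opposed in 2 and not called in 27.

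In clones the oocyte to 1-cell step gave 2 rises (Atf4 and Ern1) and 2 falls (Atf6 and Syvn1), against 25.7% of all genes called in either direction. To the 2-cell stage 4 rose (Xbp1, Hspa5, Selenos and Atf4) and 3 fell (Atf6, Ern1 and Syvn1), against 16.7% and 24.6%. To the 4-cell stage 2 rose (Atf6 and Syvn1) and 3 fell (Atf4, Ern1 and Hsp90b1), against 15.1% and 14.7%. To the 8-cell stage none was called by limma, against 6.5% of all genes (3155 had an unadjusted p under 0.05). To the morula 2 rose (Xbp1 and Hsp90b1, against 9.81%) and 2 fell (Atf4 and Ern1, against 7.61%), and without clone 8-cell replicate 4 the calls of Hsp90b1 and Ern1 were lost. The fall of Atf4 at that step was not called by its other probe sets (-0.56 and -0.46). To the blastocyst 4 rose (Herpud1, Hspa5, Ddit3 and Atf4, against 16.9%) and 1 fell (Selenos, against 17.6%). Other probe sets repeated the calls at clone steps in 17 of 44 pairs, opposed them in 1 and did not call them in 26. In IVF embryos Herpud1 and Hspa5 had passed the test 1 step earlier, and the difference between clones and IVF embryos in these changes was not called by their main probe sets. By the main probe sets the difference between the changes of clones and IVF embryos was called for 3 genes at the 1-cell to 2-cell step (1 higher and 2 lower, against 3.96% and 7.24% of all genes). It was called for Selenos at each of the next 3 steps (higher against 1.45%, lower against 1.03% and higher against 4.28% of all genes) and for none at the last (1.62% in either direction, 1784 genes with an unadjusted p under 0.05).

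Set side by side at each stage, clones and IVF embryos differed by the test in 6 of 60 gene and stage pairs, in 5 genes. Of 12 pairs of such a call and another probe set of the same gene, 1 was called the same way, 1 the opposite way and 10 were not called. At the 1-cell stage 2 genes were higher in clones (Syvn1 and Atf6, against 3.52% of all genes) and 1 lower (Ern1 by its main probe set, against 2.79%). At the 2-cell stage 1 was lower (Selenos, against 1.86% of all genes) and at the 4-cell stage 1 was higher (Selenos, against 0.462%). None was called at the 8-cell stage, where 6.62% of all genes were, nor at the morula stage, where 0.165% were. The numbers of genes with an unadjusted p under 0.05 by limma were 5204 and 1820 at these stages, and in a fit of all 51 arrays 2 of the 10 genes were called at each. At the blastocyst stage 1 was lower (Hsp90b1, against 3.34%). The values of clones and IVF embryos did not overlap in 13 of the 60 pairs. These were 4 genes at the 1-cell stage (14.8% of all genes did not overlap), 2 at the 2-cell (11.9%), 1 at the 4-cell (11.1%), 1 at the 8-cell (48.2%), 3 at the morula (8.51%; Hsp90b1, Syvn1 and Xbp1, all lower in clones, as in 3.99% of all genes) and 2 at the blastocyst stage (16.3%).

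**Figure D4:**
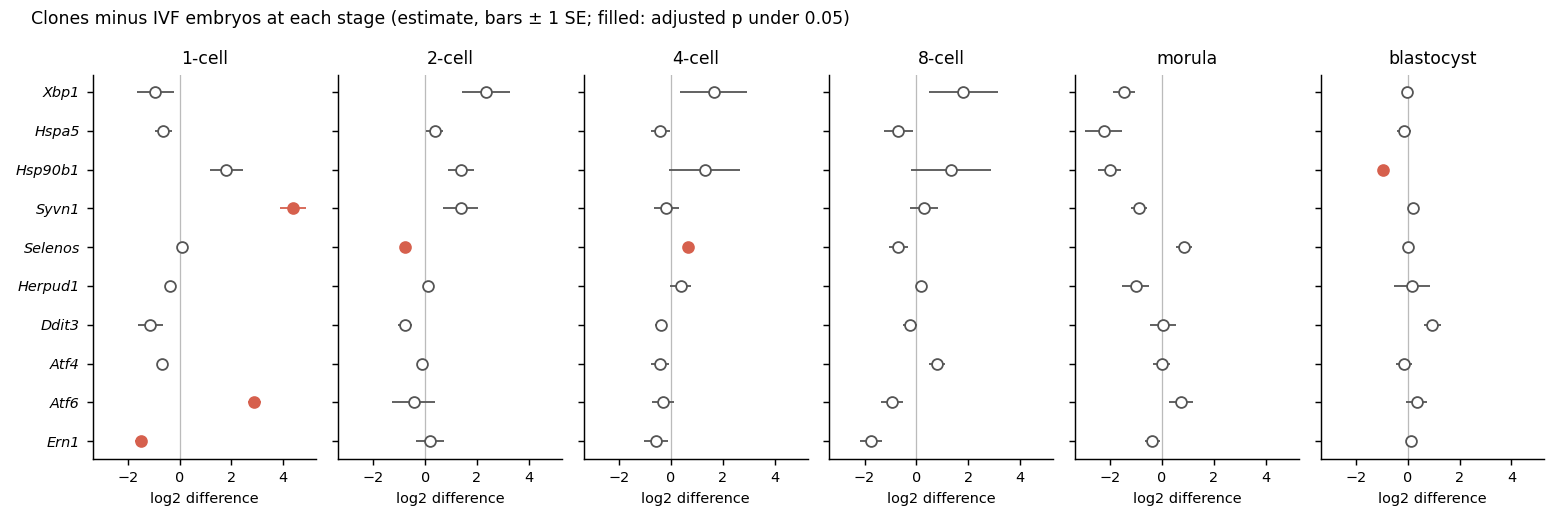
Difference between clones and IVF embryos (horizontal axis, log2) for each of the 10 genes at 6 stages by the main probe set, with bars of 1 SE from limma and filled points where the adjusted p was under 0.05. Filled points are Syvn1, Atf6 and Ern1 at the 1-cell stage, Selenos at the 2-cell and 4-cell stages and Hsp90b1 in blastocysts.

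The wider lists of the pathway were written from general knowledge. At the 1-cell stage, where 3.52% of all genes were higher in clones, some members of the chaperone, degradation, sensor and integrated stress response lists were higher. Of 19 other chaperones and folding enzymes, 2 were higher in cloned 1-cell embryos: Dnajc3, an inhibitor of PERK and a co-chaperone, by 2.58 ± 0.18, and Ero1b, an oxidase that forms disulfide bonds, by 1.50 ± 0.18 (adjusted p = 0.00174 and 0.00852). Their list had a median of -0.57 at that stage and all genes one of -0.0013. Of 17 degradation genes 3 were higher there: Sel1l, the partner of SYVN1, by 2.75 ± 0.29, Derl2, by 2.33 ± 0.42, and Herpud2, by 1.06 ± 0.22 (adjusted p = 0.00566, 0.0257 and 0.0394). Of 25 genes of the integrated stress response 3 were higher, Ddit4, Ppp1r15a and Cebpg, by 1.73, 1.86 and 0.51. Of 15 genes of sensors and their processing 1 was higher, Mbtps2, by 0.63 (adjusted p = 0.0407). Among 17 translocon genes 1 was lower at this stage, Sec11c, by -1.36 (adjusted p = 0.0433), against 2.79% of all genes. Ppp1r15a, which restores translation after PERK has slowed it, was lower in clones at the 2-cell and 8-cell stages, by -1.49 and -2.84 (adjusted p = 0.0107 and 0.048), against 1.86% and 4.47% of all genes. The second was -3.07 without clone 8-cell replicate 4 (adjusted p = 0.0567). Among 15 genes of sensors and their processing, Atf6b was lower in clones at the 2-cell and 4-cell stages by -1.71 and -1.36, and Rtcb, the ligase that joins spliced Xbp1 RNA, by -3.15 and -1.38 (adjusted p between 0.0136 and 0.0418), against 1.86% and 1.8% of all genes. The chaperone list went both ways at the 2-cell stage. There 2 were higher in clones (Dnajb9 by 0.70 and Calr by 0.97) and 1 lower (P4hb by -0.99), against 93 and 339 of 18193 genes. At the 4-cell stage 2 of 17 translocon genes were higher (Sec11a and Ssr1) and 1 lower (Srpr), against 0.462% and 1.8% of all genes.

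At the 8-cell stage none of the 19 chaperones and none of the 17 degradation genes was called, and 2 of 17 translocon genes were higher (Sec11a and Sec61b, against 2.15% of all genes) and 2 lower (Sec24d and Sec11c, against 4.47%). Without clone 8-cell replicate 4 the calls of Sec61b and Sec24d were lost, and Srpr was called lower. Of 25 integrated stress response genes 1 was higher (Vldlr) and 3 lower (Gpt2, Mthfd2 and Ppp1r15a), and without that clone 1 was higher and 2 lower. Of 15 genes of sensors and their processing 1 was lower (Traf2), and without that clone 2 were. No member of the 6 pathway lists was called between cloned and IVF morulae, where only 0.165% of all genes were called in either direction. In blastocysts 2 of the 19 chaperones were higher in clones and 1 was lower. Ero1a, the main oxidase of the organelle, was higher by 3.24 ± 0.28 (adjusted p = 0.00416) and Dnajb11 by 0.55, and Fkbp2 was lower by -1.24. Of the 17 degradation genes 1 was higher (Ube2j1 by 1.33) and 1 lower (Os9 by -0.46). Of the 17 translocon genes 1 was higher (Spcs1) and 1 lower (Ssr2). Of 25 integrated stress response genes 1 was higher (Cebpb) and 2 lower (Eif2ak1 and Eif2ak4). Of 11 death genes 1 was higher, Ero1a again. These counts stand against 2.84% of all genes higher and 3.34% lower. From the 8-cell stage to the morula 7 of the 19 chaperones rose and 0 fell in IVF embryos (median change 1.10, and 0.0013 over all genes), against 7.09% and 10.1% of all genes. In clones 8 rose and 0 fell (median 0.83, and -0.028 over all genes), against 9.81% and 7.61%. Without clone 8-cell replicate 4 this was 5 and 1, against 8.70% and 6.62% of all genes in that fit. Of 11 death genes linked to this stress, 1 rose and 1 fell at that step in IVF embryos and 4 rose in clones (5 without that clone). Each count stands against the share of all genes just given for its own fit.

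Beyond the 10 genes, the ERSE letters stood in the promoter windows of 37 genes, of which 20 were measured and 3 are Hspa5, Hsp90b1 and Syvn1. From the 8-cell stage to the IVF morula 7 of the 20 rose and 0 fell, beside the 7.09% of all genes that rose and the 10.1% that fell. The 7 include Hspa5, Hsp90b1 and Syvn1. Apart from these 3 the genes that rose were Calr, Canx, Pdia6 and Creld2, named after their values were seen. Some of the 20, among them Calr, Dnajc3 and Ero1b, are also in the chaperone list, so this count and that of the list share genes. Calr and Canx encode lectin chaperones and rose by 3.46 ± 0.26 and 3.29 ± 1.03 (adjusted p = 2.52e-07 and 0.0375). Pdia6, a disulfide isomerase, rose by 2.67 and Creld2 by 1.31. In clones 5 of the 20 rose and 1 fell at this step, against 9.81% and 7.61% of all genes, with a change of 1.28 ± 0.25 for Calr. Without clone 8-cell replicate 4 only 2 rose and 2 fell, against 8.70% and 6.62% of all genes in that fit. The difference between the changes was called for Calr, at -2.18, and for Acacb, at -2.10 (adjusted p = 0.000243 and 0.049; 0.000537 and 0.0843 without that clone), and the median difference over the 20 was -0.71.

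**Figure D5:**
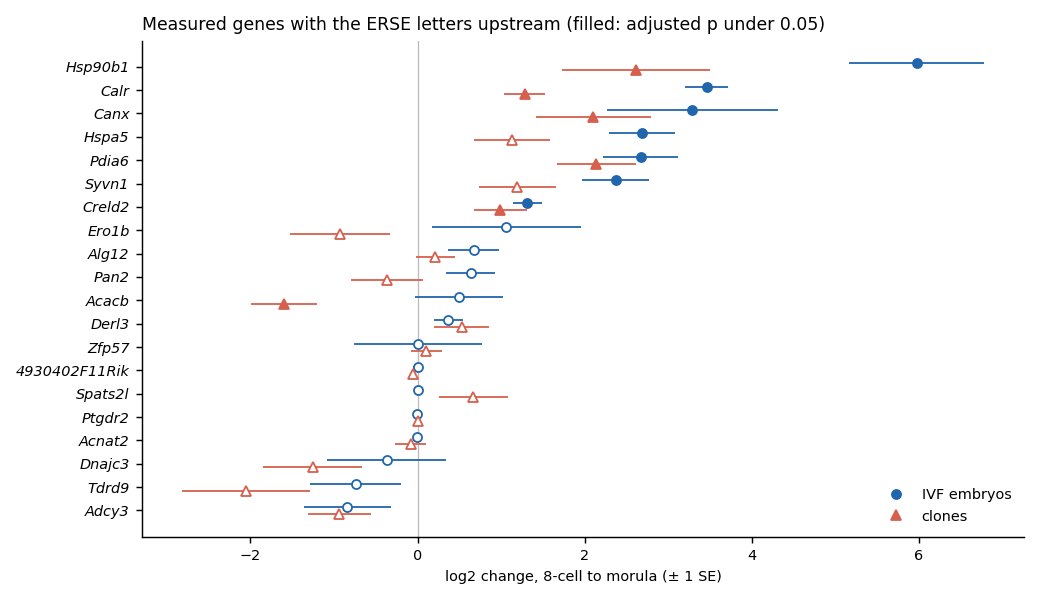
Change from the 8-cell stage to the morula (horizontal axis, log2, bars of 1 SE from limma) in IVF embryos (circles) and clones (triangles) for the 20 measured genes with the ERSE letters in the promoter window, filled where the adjusted p was under 0.05. In IVF embryos 7 points are filled, all to the right of 0, and in clones 5 to the right and 1 to the left.

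The genes most like Xbp1 over the 13 group means were Tbck, Ddc, Adgre5, Cmbl and Tecpr1 (Pearson r from 0.971 to 0.977). For Hspa5 they were Pagr1a, Calr, Tmem165, Crot and Harbi1 (r from 0.863 to 0.891), and for Ddit3 they were Polr1d, Mob3a, Faap100, Limk2 and Mtfr1l (r from 0.864 to 0.877). Calr, which stands second for Hspa5, holds the ERSE letters as Hspa5 does. Within the 10 genes the largest negative values were -0.809 for Syvn1 with Atf4 and -0.797 for Hspa5 with Atf6. These r values describe 13 means that share stages and arrays.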

How the data were processed

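Single mouse oocytes and embryos were measured on 51 Affymetrix arrays, 1 per array, after 2-cycle amplification of total RNA, per the labels' protocols. The authors deposited log2 values made with RMA, per the submitters' processing notes, whose version is not given in the sources used here. In 94.3% of the 45101 probe sets exactly 1 array is at 0, with 24 to 26 of the 51 arrays below 0, so each probe set had been centred. The log base was read from the values: 1 probe set spans 13.8 units, more than the 11.1 that a 16-bit scanner allows in natural logs. Gene names came from the platform annotation (34945 probe sets with 1 symbol, 932 with several and 9160 with none, besides 64 controls), and each gene was tested by its probe set of largest SD. Detection calls were not used here, and the number of arrays limits the precision.

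limma 3.58.1 in R 4.3.3 (lmFit and eBayes, Benjamini-Hochberg adjustment over 18193 genes, threshold 0.05) compared 5 clones with 3 IVF embryos within each stage, successive stages over 21 IVF and oocyte arrays or 30 clone arrays, oocytes with cloned 1-cell embryos over 8 arrays, and the changes of clones with those of IVF embryos over all 51 arrays. The fits were tried on simulated data with normal noise of 1 SD per gene in every group. A fit over several stages likewise takes 1 spread per gene for all its groups. In the data the spread differed between groups, as for the main probe set of Xbp1 (SD 0.0013 in oocytes and 2.21 in clone 4-cell embryos). The simulation does not cover that case. Alternatives were the mean of a gene's probe sets, each other probe set, median centring, a second quantile normalization, leaving out the 30% of genes of lowest SD, 1 fit of all arrays, control signals as covariates, the replicate number as a block, and leaving out replicates. Same-numbered IVF and cloned embryos of a stage did not deviate together (residual r from -0.204 to 0.102), so the numbers were not taken as pairs. That check does not reach clone numbers without an IVF partner. Whether same-numbered clones of different stages share a batch was not tested. The 10 genes and the gene lists were chosen with earlier results of these data known. Genes named from a list as called at a stage were among the up to 4 with the smallest adjusted p there. Not all of these were named, and which ones were named followed no fixed rule. The genes with ERSE letters were named after their values were seen. Promoter sequences are RefSeq's (GRCm38.p6).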

Additional observations from a re-analysis of the deposited data

Results flagged for a closer look

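In 8 of the 60 groups of 5 clones 1 embryo lay far from the other 4, by a rule on its gap to the next value. The rule flags about 1 group in 20 where values are independent and normally spread. These groups are 10 genes read on the same 30 embryos, so the 8 cannot be set against that rate. For Xbp1 clone 1-cell replicate 2 was at -2.04 and the others between -3.03 and -3.01, values that may be a floor. For Syvn1 clone morula replicate 5 was at -0.28 and the others between 0.63 and 0.97. For Selenos clone 4-cell replicate 2 was at 1.17, above 0.88 to 0.94, and for Herpud1 the same embryo was at 1.64, above -0.03 to 0.19. For Ddit3 clone 8-cell replicate 4, the embryo whose Y-linked value went against its label, was at 0.32 and the others between -0.32 and -0.26. For Atf4 clone morula replicate 3 was at -1.80 and the others between -0.80 and -0.49. For Ern1 clone 2-cell replicate 1 was at 1.21, below 3.22 to 3.43, and clone 8-cell replicate 3 was at -1.85, below -0.68 to -0.48.

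The change between successive stages differed between clones and IVF embryos, by the test of the difference itself, for 4 genes. From the 1-cell to the 2-cell stage it differed by -3.32 for Atf6, -3.01 for Syvn1 and 1.67 for Ern1. For Selenos it differed by 1.45 to the 4-cell stage, -1.38 to the 8-cell stage and 1.55 to the morula. Their errors and adjusted p-values stand with each gene above.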

How the results depend on the processing

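Of 63 calls for single genes, median centring ended 1 call, a second quantile normalization 13, the fit of all 51 arrays 5 of the 57 it could test, the mean of probe sets 9 and the replicate block 12, while the fit of all arrays added 5 and the filter on low SD added 1. With the replicate number as a block the count of the 10 genes called went from 3 to 0 at the 1-cell stage, from 1 to 0 at the 2-cell, 4-cell and blastocyst stages and from 4 to 2 from oocyte to cloned 1-cell embryo, where none of the 4 was kept and Herpud1 and Hsp90b1 were called instead (-0.29 and 1.56). It kept 24 of 26 calls for IVF steps, 21 of 21 for clone steps and 6 of 6 for differences between steps. At the 2-cell stage the count was 0 under quantile normalization and with either control covariate, at the 4-cell stage 0 with the mean of probe sets, median centring and either covariate, and at the blastocyst stage 0 with the mean of probe sets, the fit of all arrays and the 3′ to 5′ covariate. At the 8-cell stage it was 1 with the filter, and at the 8-cell and morula stages 2 in the fit of all arrays (Selenos and Ern1, then Hspa5 and Selenos). Leaving out 1 replicate gave counts of 2 to 3 at the 1-cell stage, 1 to 1 at the 2-cell and blastocyst stages, 0 to 0 at the 4-cell, 8-cell and morula stages, 18 to 21 over IVF steps, 3 to 6 from oocyte to cloned 1-cell embryo, 17 to 20 over clone steps and 2 to 9 over differences. Leaving out clone 8-cell replicate 4, chosen after seeing the data, gave 20 over clone steps and 7 over differences.

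The sign turned in 33 cases, 30 of them by another probe set; the cause was not tested. For Ern1 these were, at the 1-cell stage, 0.24 (mean), 2.51 (1437119_at), 0.39 (1450176_at) and 0.10 (1431886_at), and in blastocysts -1.03 (1437119_at). From oocyte to 1-cell they were -3.95 (1437119_at) and -0.02 (1431886_at) in IVF embryos, and -1.44 (1437119_at) and -0.02 (1438583_at) in clones. From 1-cell to 2-cell they were 0.09 (1431886_at) in IVF embryos, 0.21 (quantile), 0.13 (1431886_at) and 0.02 (1438583_at) in clones, and -0.06 (mean), -2.08 (1437119_at) and -0.11 (1450176_at) for the difference. From 2-cell to 4-cell they were 0.01 (1450176_at) and 0.70 (1431886_at) in IVF embryos and 0.13 (1438583_at) in clones, and from 8-cell to morula 0.08 (1438583_at) in clones. For Atf6 1453288_at gave -0.76 at the 1-cell stage, 1.69 and 0.94 from oocyte to IVF and cloned 1-cell embryo and 1.12 for the difference from 1-cell to 2-cell, and 1435444_at gave 0.48 from 8-cell to IVF morula. For Atf4 the step to the blastocyst was -0.51 (1438992_x_at) and -0.21 (1439258_at) in IVF embryos and -0.10 and -0.36 in clones, and 1439258_at gave -0.20 for clones from 1-cell to 2-cell. The others were Selenos at the 4-cell stage, -0.20 (1435735_x_at), and from cloned morula to blastocyst Ddit3, -0.07 (1443897_at), and Hspa5, -0.95 (1447824_x_at). Signal over background could not be judged from centred values.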
